A study of Mus musculus with 3 samples.

Results

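The genes described here encode the proteins of the cytosolic ribosome. They were taken from the gene tables by symbol: large-subunit (Rpl, 60S) and small-subunit (Rps and Rpsa, 40S) genes with a protein-coding transcript, without S6 kinases and without pseudogenes that carry -ps in the symbol. This gave 86 members of 55536 mouse genes, 52 of the 60S and 34 of the 40S subunit. Of these, 77 are the main genes for a ribosomal protein and 8 are paralogues named after one of them. The remaining member, Rps19bp1, encodes a protein that binds Rps19 and is no ribosomal protein; it is given apart.

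The RNA came from the cytosolic fraction of C57BL/6J mouse bone-marrow-derived macrophages. All cells had received 100 ng/ml Lipid A, the part of bacterial lipopolysaccharide that Toll-like receptor 4 recognises, for 12 h, were washed out for 12 h and then had 100 ng/ml Lipid A again for 120 min. Total RNA depleted of ribosomal RNA was sequenced in 3 libraries, labelled as biological replicates of this 1 group. No label says that they were separate cultures or animals, so their spread may be technical, and no untreated or once-treated cells were analysed here. Each library was quantified in 2 ways from the same reads. The first quantification used alignments to transcripts and the second used the reads with a transcript index.

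A ribosome holds 1 copy of nearly every ribosomal protein, and cells make the proteins of both subunits in near-equal numbers. Their mRNAs belong to the TOP class, which begins with a cytosine and a run of pyrimidines at the cap. Through this run the mTOR pathway controls their translation. In macrophages, Toll-like receptor signalling is known to act on mTOR and on protein synthesis. Many ribosomal protein genes also carry small nucleolar RNAs in their introns, and mammalian genomes hold many intronless copies of them made by reverse transcription.

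In the first quantification the libraries held 29273905, 64712387 and 37602724 counts on mouse genes in replicates 1, 2 and 3, and the members held 1.22%, 1.26% and 1.09% of them. All 7 markers of macrophages had at least 1 TPM throughout, and 0 of the listed markers of T cells, B cells, neutrophils, erythroid cells and fibroblasts did. The B cell marker Cd79b came nearest, at 1.1, 0.91 and 1.44 TPM in replicates 1, 2 and 3. TPM is a level per length of transcript, scaled to 1 fixed total in each library. The deposited TPM covers all RNAs, small structural RNAs included, and protein-coding genes held 32.5%, 26.5% and 27.1% of it. Where the quantifications are compared, TPM was therefore rescaled to the same total over long noncoding and protein-coding genes only.

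The annotated 5′ ends were searched for the sequence by which these mRNAs are known, and most of them did not start with it. Of the 66 members with a start in the RefSeq table (GRCm38.p6), 14 (21.2%) began with a C followed by at least 4 bases that are C or T, against 2.96% of 26959 other symbols. Within 5 bases of the start the run was found for 45.5% of members and 21.1% of other symbols. Read from the leading transcript of GENCODE M21, the run stood at the first base of 10 of 83 members (12.0%), against 2.31% of 8239 other protein-coding genes. A match says only that these letters are there, and annotated starts can lie some bases off. The median level was 161 TPM for the 30 members with the run within 5 bases and 121 TPM for the 36 without. The sets differ in make-up. The 36 include the paralogues Rpl3l, Rpl7l1, Rpl10l, Rpl36al and Rpl39l, and Rps19bp1, while the 30 include Rpl22l1, Rps27l and Rps27rt. A link between the run and the level was not tested. The windows below span 15 bases before and 15 bases from the annotated start, with the pyrimidine run in capitals. They were chosen among the members that have the run, and show it in Rps6, the protein that S6 kinase phosphorylates, in the Diamond-Blackfan anaemia genes Rpl15, Rpl35a and Rps10, in the stalk gene Rplp2, and in the pair Rps27rt and Rps27, whose runs are both followed by the same bases.
Rps6 (chr4:86857353-86857382, minus strand): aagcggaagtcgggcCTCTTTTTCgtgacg
Rpl15 (chr14:18270972-18271001, minus strand): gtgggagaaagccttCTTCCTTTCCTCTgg
Rpl35a (chr16:33056467-33056496, plus strand): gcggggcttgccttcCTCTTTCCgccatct
Rps10 (chr17:27635230-27635259, minus strand): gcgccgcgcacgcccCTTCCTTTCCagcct
Rplp2 (chr7:141447636-141447665, plus strand): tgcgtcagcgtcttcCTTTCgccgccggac
Rps27rt (chr9:114982725-114982754, minus strand): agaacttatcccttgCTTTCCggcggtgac
Rps27 (chr3:90213634-90213663, minus strand): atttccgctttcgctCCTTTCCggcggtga

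Ribosomal protein mRNAs were abundant and most of them stood close together. The member median was 154 ± 21.9 TPM (SD, n = 3), against 0.12 ± 0.01 TPM over all 22028 protein-coding genes, and 83 of 86 members reached 1 TPM in every library. Of the protein-coding genes, 8612 reached 1 TPM in every library and 7456 had no count, so their median includes many silent genes. Summed over members, their share of rescaled TPM was 5.11%, 5.16% and 4.58% in replicates 1, 2 and 3. Of the 77 main genes, 63 lay within 2-fold of their median of 160 TPM, and 64 stood among the 500 highest protein-coding genes. The order of these genes was much the same in each library (Spearman's rho across genes 0.964 to 0.983, given as a description because the points share libraries and annotation). In bulk RNA, fewer cells of a type and less RNA per cell cannot be told apart.

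Rpl41, which encodes the very short peptide at the interface of the subunits, had the highest mean level. It stood at 816, 820.0 and 731 TPM in replicates 1, 2 and 3 (mm10, ENSMUSG00000093674.7, chr10:128548114-128549305). On this deposited scale its libraries lay close to each other. Rps24, needed for processing of the 18S rRNA precursor, followed at 890, 676 and 532 TPM, highest in replicate 1. On rescaled TPM it had 2687, 2486 and 1910, with replicate 3 the lowest. Rps29, a small zinc-binding protein of the 40S head, stood at 647, 469 and 484 TPM. Rplp1, an acidic protein of the stalk that recruits elongation factors, stood at 530, 334 and 342 TPM. Rps27, a zinc-finger protein of the 40S subunit, stood at 489, 327 and 291 TPM. For all of the last 3, replicate 1 was the highest library on this scale and the others lay close to each other. Deposited TPM placed 78 of 84 members above the other libraries in replicate 1, and rescaled TPM placed 51 there. Rpl19, which takes part in a bridge between the subunits, averaged 365 ± 43.6 TPM, Rps12, a protein of the 40S beak, 327 ± 77.4 TPM, and Rpl10, which joins the 60S subunit late near the peptidyl transferase centre, 317 ± 61.7 TPM (SD, n = 3 each). These 8 genes held 26.1% of the members' TPM.

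**Figure D1:**
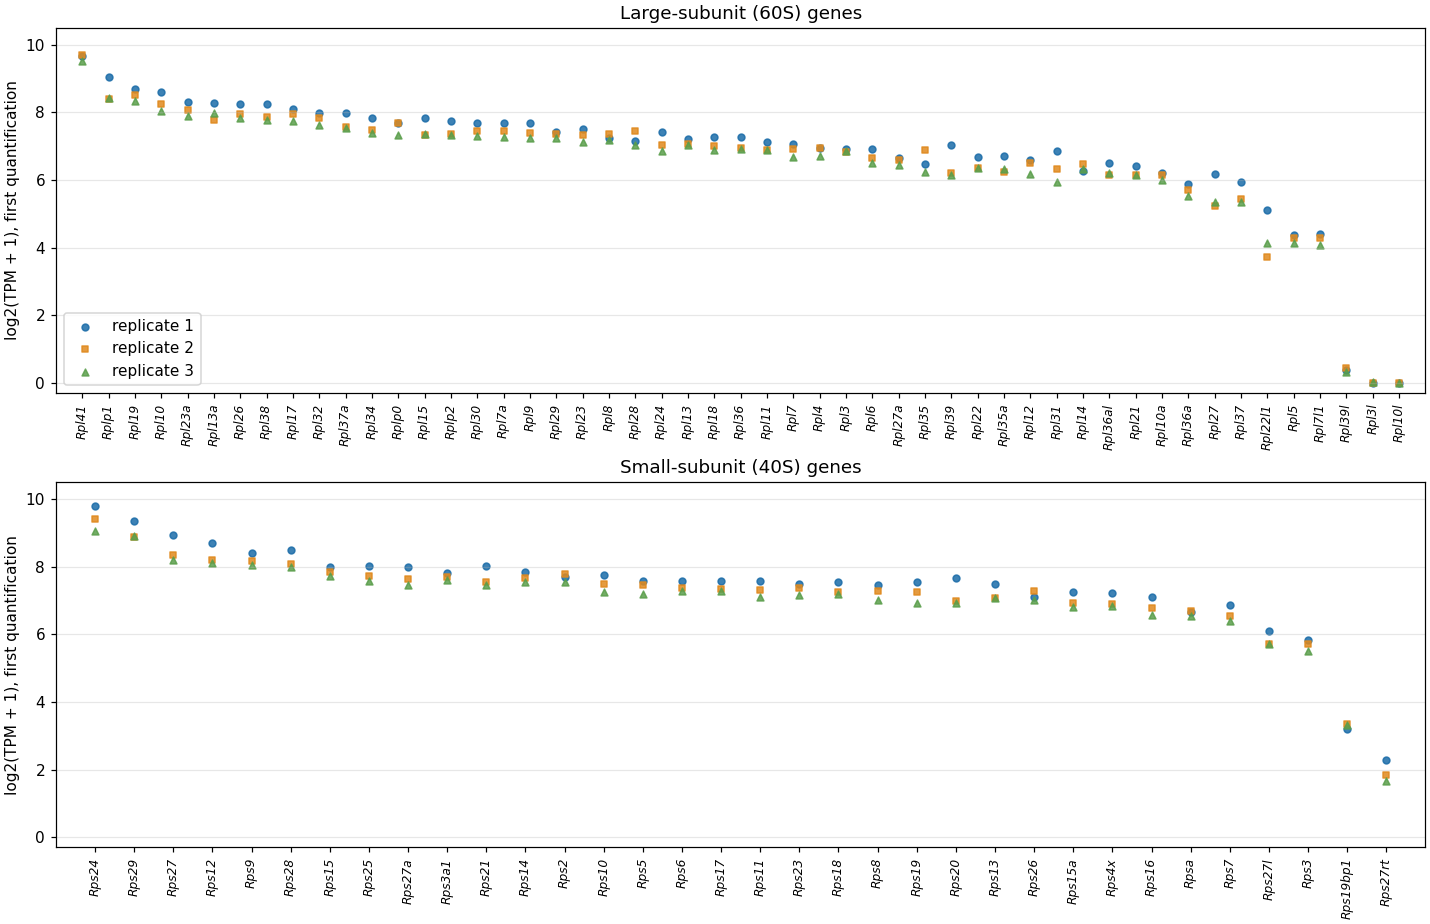
Level of the members in each library (1 not shown) as log2(TPM + 1) of the first quantification, 60S genes above and 40S genes below, ordered by mean; each symbol is 1 library. Most genes form a plateau around the median of 154 TPM, with Rpl41 and Rps24 at the top and Rpl10l, Rpl3l and Rpl39l near 0.

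Levels per length and levels per read gave different orders. Across the 77 main genes, TPM fell with effective length (Spearman's rho -0.47) and counts scaled to library size rose with it (rho 0.47), both as descriptions across genes. By TMM-scaled CPM (a count scaled to library size and not to length), Rps24, Rplp0, Rpl19 and Rpl41 led. Rps3, which lines the mRNA entry channel, ranked low by TPM at 56.1, 51.6 and 44.2, and its leading transcript is annotated at 1908 bases. Rpl5 was the lowest main gene of the first quantification at 19.7, 18.6 and 16.5 TPM, with a leading transcript of 2045 bases. In the same quantification, near-identical copies of Rpl5 elsewhere in the genome held 3197, 6824 and 3696 counts in replicates 1, 2 and 3. The gene and its copies together held 4746, 10830 and 5484 counts. The part of read assignment and of transcript length in the low level of Rpl5 was not tested.

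The 60S members stood below the 40S members on TPM, by a difference that depended on the scale and the members included. The 60S members had a median of 144, 125 and 118 TPM and the 40S members one of 190, 163 and 145 TPM in replicates 1, 2 and 3. The median log2(TPM + 1) of the 60S less that of the 40S members was -0.36 ± 0.05 (SD, n = 3), with the 60S lower in 3 of 3 libraries. Without paralogues and Rps19bp1 it was -0.24, and on TMM-scaled CPM it was -1.26e-04.

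The functional groups stood near the plateau with a few low members. In the stalk, Rplp0, the anchor of the acidic proteins, averaged 190.1 ± 27.3 and Rplp2 179 ± 28.8 TPM, below Rplp1 at 402 ± 111. In the 5S particle, which also binds the p53 regulator Mdm2, Rpl11 averaged 124 ± 11.6 TPM and Rpl5 18.3 ± 1.66. The value of Rpl5 leaves out the reads placed on its copies. Around the exit tunnel, Rpl17 averaged 244 ± 31.9, Rpl4 117 ± 10.6, Rpl39 91.1 ± 34.6 and Rpl22 87.8 ± 12.3 TPM. At the mRNA channel and decoding site, Rps15 averaged 230 ± 21.05, Rps14 205 ± 21.1, Rps2 205 ± 17.7 and Rps23 161 ± 18.4 TPM (SD, n = 3 each). Of the single genes with known further roles, Rps27a, made as a fusion with ubiquitin, averaged 209 ± 39.6 TPM. Rpl13a, which in human myeloid cells leaves the ribosome to silence inflammatory mRNAs, averaged 259 ± 46.3, Rps6 169 ± 18.6, and Rpsa, also known as a laminin receptor, 98.3 ± 5.08 TPM. The 11 genes linked to Diamond-Blackfan anaemia in humans had a list median of 186, 154 and 127 TPM in replicates 1, 2 and 3, against 177, 153 and 133 TPM for all members.

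Paralogues fell into silent and expressed ones. Rpl10l, a testis gene, had no count in any library, and Rpl3l, the muscle form of Rpl3, was listed at 0, 0 and 0.02 TPM. Rpl39l, also a testis gene, stood at 0.30, 0.34 and 0.25 TPM, against 131, 72.0 and 70.2 TPM for Rpl39. Rpl36al was the highest paralogue at 90.4, 70.1 and 72.1 TPM, above Rpl36a at 58.4, 50.7 and 45.2 TPM with no overlap of the libraries. These levels of Rpl36a leave out its near-identical copies, which held 167, 439 and 268 counts in replicates 1, 2 and 3. Rpl36a and its copies together held 876, 2111 and 1088 counts. Rpl36al held 1287, 2694 and 1532 counts, and its copy held 0. Rps27l, a p53 target, stood at 67.9, 52.1 and 51.9 TPM, against 489, 327 and 291 TPM for Rps27. Rpl7l1, a factor of 60S assembly, stood at 20.0, 18.3 and 15.8 TPM, against 132, 121 and 102 TPM for Rpl7. Rpl22l1, which Rpl22 is known to repress in mice, stood at 33.6, 12.3 and 16.5 TPM, against 102, 81.1 and 80.3 TPM for Rpl22. The retrogene Rps27rt stood at 3.83, 2.55 and 2.14 TPM. Apart from the paralogues, Rps19bp1 averaged 8.79 ± 0.547 TPM (SD, n = 3).

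**Figure D2:**
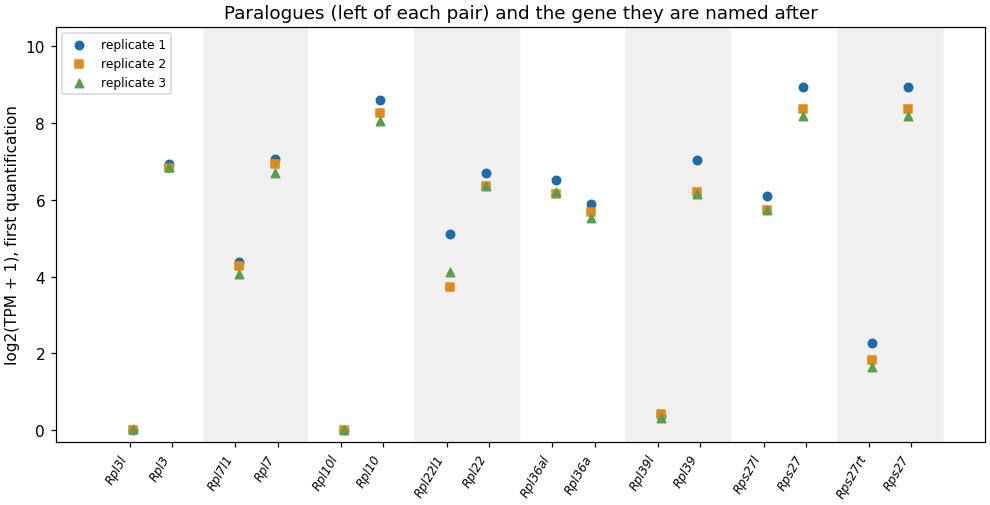
Level of each paralogue (left of each pair) and of the gene it is named after (right), as log2(TPM + 1) of the first quantification; each symbol is 1 library. Rpl3l, Rpl10l and Rpl39l lie near 0, and Rpl36al is the only paralogue above its named gene.

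The members shared a departure between libraries. On TMM-scaled CPM, 83 of 84 members with at least 10 counts in a library lay below the mean of the other libraries in replicate 3, and the 77 main genes all did. The same held for 57.9% of protein-coding genes and for 67.9% of those with a mean of at least 1000 counts. The median departure of the members in replicate 3 was -0.26 on the log2 scale, against -0.05 for protein-coding genes, and the main genes ran between -0.56 for Rpl31 and -2.69e-03 for Rpl3. Rps19bp1 was the exception at 0.08. In replicate 1, 63 of 84 members lay above the other libraries (75.0%, against 49.5% of protein-coding genes), and in replicate 2, 73 did (86.9%, against 56.8%). These counts moved with the scale, to 51 in replicate 1 and 64 in replicate 2 on rescaled TPM. On TPM as deposited, 78 members lay above the others in replicate 1 and 28 in replicate 2, where 56 lay below. The lower values in replicate 3 were also found on rescaled TPM (80 of 84 members) and in the second quantification (81 by TMM-scaled CPM and 76 by rescaled TPM).

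Nuclear RNA moved the other way in the same library. Malat1, found in nuclear speckles, had 191, 133 and 952 TPM and Neat1, the paraspeckle scaffold, at 14.3, 10.9 and 55.6 TPM in replicates 1, 2 and 3, so that replicate 3 held the most of both. The part of this in the members' departure was not tested. On rescaled TPM, the members' median departure in replicate 3 was -0.16, against 0.05 for protein-coding genes.

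**Figure D3:**
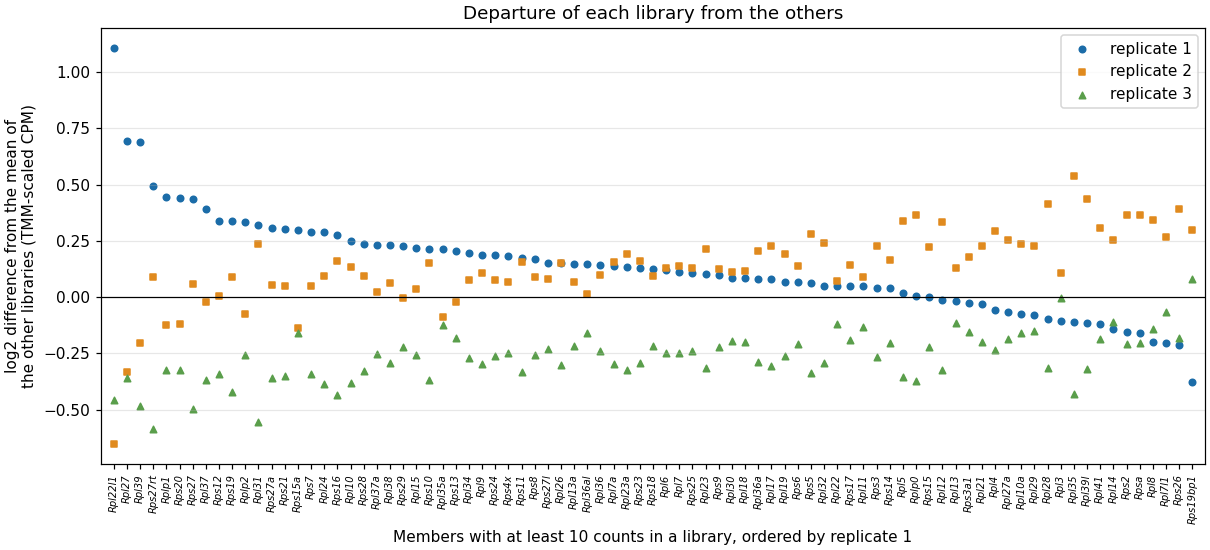
Log2 difference between 1 library and the mean of the other libraries in TMM-scaled CPM for members with at least 10 counts in a library (1 not shown), ordered by replicate 1; each symbol is 1 library. Replicate 3 lies below 0 for all members shown but Rps19bp1, and Rpl22l1, Rpl27 and Rpl39 stand out in replicate 1.

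Genes of the same pathway outside the symbol rule were read beside the members. Fau, which encodes a ubiquitin-like protein fused to a 40S protein, averaged 376 ± 46.0 TPM, and Rack1, a scaffold on the 40S subunit, 74.5 ± 10.6 TPM (SD, n = 3 each). Both lay below the other libraries in replicate 3. Of 9 further TOP mRNAs, 8 lay below in replicate 3, with a median of -0.22. Among them Eef1a1, the factor that brings aminoacyl-tRNA, averaged 845 ± 154 TPM and Tpt1, a conserved growth-related protein, 609.5 ± 174 TPM. The 12 ribosome assembly genes had another pattern, with 12 of 12 above the other libraries in replicate 2, 9 of 12 above in replicate 3 and 0 of 12 above in replicate 1. Ncl and Fbl, proteins of the nucleolus, averaged 37.9 ± 3.59 and 9.74 ± 0.897 TPM. The 78 mitochondrial ribosomal protein genes had a median of 9.34 ± 0.257 TPM, and 30 of them lay above the other libraries in replicate 3. Of 53 translation initiation factor genes tested, 12 did. No test of a difference between these lists was made.

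Most members differed between the libraries by more than counting error, as did most genes of their depth. A chi-square test of rounded expected counts against TMM-scaled library sizes, adjusted by Benjamini-Hochberg over 14568 genes, called 82 of 84 members, against a background of 71.6%. Among protein-coding genes with a mean of at least 1000 counts the background was 90.4%, and 80 of 80 members of that depth were called. In the second quantification 82 of 83 members were called, against 82.2% of all genes, and the 82 were called in both. Rps27rt (adjusted p = 0.273) and Rpl39l (adjusted p = 0.645), both with few counts, were not called in the first quantification by the chi-square test with Benjamini-Hochberg adjustment. The test shows that the libraries differ and says nothing of a condition.

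The spread of members was near that of protein-coding genes, and which of them was smaller depended on the libraries and the quantification. The median coefficient of variation (SD over mean) was 11.9% for members and 13.3% for protein-coding genes. Without replicate 3 it was 6.36% for members and 12.1% for protein-coding genes, but without replicate 1 it was 11.5% and 9.70% in the same order, and without replicate 2 it was 12.5% and 11.1%. In the second quantification it was 16.6% for members and 14.9% for protein-coding genes. Rpl22, Rpl3, Rpl11, Rpl13 and Rpl36al were the most even at 4.75%, 4.94%, 5.38%, 5.75% and 7.10%. The most uneven was Rpl22l1 at 17.2, 7.63 and 8.36 TMM-scaled CPM in replicates 1, 2 and 3 (48.2%), with an adjusted p of 2.36e-42 by the chi-square test with Benjamini-Hochberg adjustment. Replicate 1 was high and the others lay close to each other, while its named gene Rpl22 was the most even member. Rpl39, which lines the exit tunnel, had 82.6, 54.7 and 48.0 CPM (29.7%), and Rpl27, a 60S surface protein, 45.5, 28.4 and 28.0 CPM (29.5%), again with replicate 1 high. Rpl35, near the tunnel exit, had 93.3, 126 and 80.4 CPM (23.5%), with replicate 2 high. Rps27 had 102, 85.7 and 66.3 CPM (21.1%), with replicate 3 low. The second quantification gave the same high library for the first 4, with coefficients of 48.0%, 31.5%, 27.8% and 29.3%.

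The leading transcript of a gene was usually a coding one, but not always. Transcripts annotated as protein-coding held 92.8% ± 0.410 of the members' TPM, retained introns 3.89% ± 0.140 and transcripts marked for nonsense-mediated decay 2.39% ± 0.170 (SD, n = 3). The leading transcript was protein-coding for 71 of the 77 main genes and held over 90% of the gene's TPM for 45. Among the others were Rpl15, Rps16, Rps20, Rps23 and Rpsa. For Rps20 a transcript of 582 bases annotated as a retained intron made up 91.9%, 91.5% and 90.3% of the gene's level in replicates 1, 2 and 3, and for Rps16 one of 518 bases held 71.2%, 77.3% and 76.0%. For Rps24 the transcript of 468 bases held 79.2%, 76.6% and 65.6%, and a longer one of 1613 bases held 17.5%, 19.2% and 26.8%, highest in replicate 3. The second quantification gave 14.0%, 15.3% and 21.5% for this longer transcript, in the same order. Small nucleolar RNA genes lay on the same strand within 30 of the 86 members (34.9%), against 1.76% of 11833 protein-coding genes with at least 10 counts in a library, and Rpl4 held the most at 5.

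The quantifications gave the same level for most members and far different ones for a few. The median log2 ratio of the second to the first quantification (rescaled TPM + 1) was -0.10 ± 0.04 (SD, n = 3), against -1.35e-03 ± 0.04 for protein-coding genes. Of the 84 members compared, 78 stayed within 1.5-fold in all libraries. In the second quantification 5 of the 84 (5.95%) were over 2-fold lower in all 3 libraries and 0 were over 2-fold higher, against 0.422% and 0.695% of 10654 protein-coding genes. Both quantifications start from the same libraries, so these ratios compare the assignment of reads and not cells.

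Rpl12, a protein of the stalk base, had 7.06, 13.4 and 10.2 rescaled TPM in the second and 289, 325 and 254 in the first quantification in replicates 1, 2 and 3. Rps12 had 45.1, 74.1 and 41.6 in the second and 1254, 1069 and 981 in the first. Rpl10 had 198, 178 and 198 in the second and 1160.5, 1119 and 945 in the first. In none of these did the quantifications come near each other, and the log2 ratios were -4.73 ± 0.39, -4.38 ± 0.48 and -2.48 ± 0.21 (SD, n = 3 each). Rps27rt had 2.58, 0 and 0 rescaled TPM in the second and 11.6, 9.37 and 7.68 in the first. Rpl5 had 15.9, 23.7 and 26.3 in the second and 59.6, 68.5 and 59.2 in the first, a log2 ratio of -1.49 ± 0.35. Of the members inside the 2-fold limit, Rpl27a (-0.42), Rps7 (-0.40) and Rpl7 (0.39) came nearest by mean log2 ratio.

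**Figure D4:**
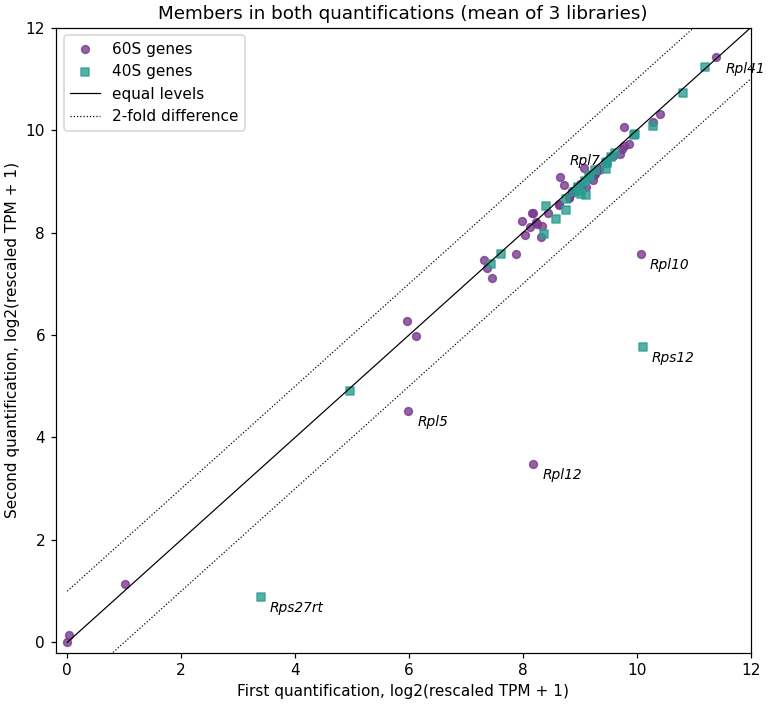
Mean level of the members (1 not shown) in the second (vertical) and first (horizontal) quantification as log2(rescaled TPM + 1); the solid line marks equal levels and the dotted lines a 2-fold difference. Rps12, Rpl10, Rpl12, Rpl5 and Rps27rt lie below the lower dotted line, and all other members shown lie between the lines.

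Each of the 5 members has an annotated gene elsewhere in the genome with the same coding sequence. Copies were searched among GENCODE M21 transcripts as genes off the member's own locus that share at least 50 stretches of 31 bases, and 10% of those of its leading coding transcript. There were 785 such copies for 79 members, 744 of them annotated as processed pseudogenes. For 19 members a copy matched the whole coding sequence without a difference. The first 60 coding bases are printed for the 5 members because gene and copy cannot be told apart there; the capitals mark the start codon.
Rps12 (chromosome 10) and Rps12-ps3 (chromosome 19): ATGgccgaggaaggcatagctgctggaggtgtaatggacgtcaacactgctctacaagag
Rpl10 (chromosome X) and Rpl10-ps3 (chromosome 9): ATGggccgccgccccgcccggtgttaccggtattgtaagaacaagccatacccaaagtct
Rpl12 (chromosome 2) and Gm10275 (chromosome 10): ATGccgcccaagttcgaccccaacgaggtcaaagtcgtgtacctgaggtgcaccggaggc
Rpl5 (chromosome 5) and Gm15500 (chromosome 7): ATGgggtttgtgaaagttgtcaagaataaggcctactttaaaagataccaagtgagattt
Rps27rt (chromosome 9) and Rps27 (chromosome 3): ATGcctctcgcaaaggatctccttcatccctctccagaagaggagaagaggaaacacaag

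The counts that a member lacked in the second quantification stood on its copy. Rps12 (chr10:23785183-23787275) had 255, 935 and 366 counts in the second and 6201, 11838 and 6223 in the first quantification. Its copy Rps12-ps3 (chr19:59322290-59322783, annotated as protein-coding) had 6352, 11520 and 6416 in the second and 154, 217 and 234 in the first. Gene and copy had thus exchanged places, with 396 coding bases the same in both. Rpl10 (chrX:74270812-74273135) had 2067, 4125 and 2727 counts in the second and 10362, 21894 and 10617 in the first, and Rpl10-ps3 (chr9:50344201-50344968) had 9272, 19742 and 9205 in the second and 448, 1284 and 759 in the first. Rpl12 (chr2:32961559-32965345) had 84.4, 347 and 190 counts in the second and 3484, 9107 and 4136 in the first. Its copy Gm10275 (chr10:29698746-29699380, a transcribed processed pseudogene) had 3923, 10254 and 4983 in the second and 215, 673 and 405 in the first. For Rpl5 (chr5:107900502-107909005) the copy Gm15500 (chr7:114705217-114706235) held more counts than the gene in both, with 4804, 10629 and 5433 in the second and 3197, 6821 and 3695 in the first. The gene itself had 323, 955 and 521 in the second and 1549, 4005 and 1788 in the first. Rps27rt had 6.70, 0 and 0 counts in the second and 27.5, 50.8 and 22.9 in the first, beside 3083, 5650.0 and 2763 in the second and 2916, 5450 and 2599 in the first on Rps27.

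Rpl41 went the other way. It had 12658, 31376 and 16503 counts in the second and 8772, 23816 and 11665 in the first quantification, while Gm10076, a noncoding gene on chromosome 14 with the same 75 coding bases, had 1.89, 27.6 and 28.9 in the second and 2405, 5303 and 3311 in the first. Of the 22 pairs of a member and a copy without a coding difference, 8 copies were at 0 counts in all libraries of the second quantification. The 22 hold Rps27 and Rps27rt in both directions, because each is a member and a copy of the other. Gm12918, the copy of Rpl13, was at 0 in the second and at 77.4, 184 and 144.5 counts in the first. For Rpl27 the copies Gm11518 and Rpl27-ps3 have 1 and the same transcript sequence of 411 bases, and each was given 527, 1500 and 640 counts in the second and 522, 1493 and 690 in the first.

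**Figure D5:**
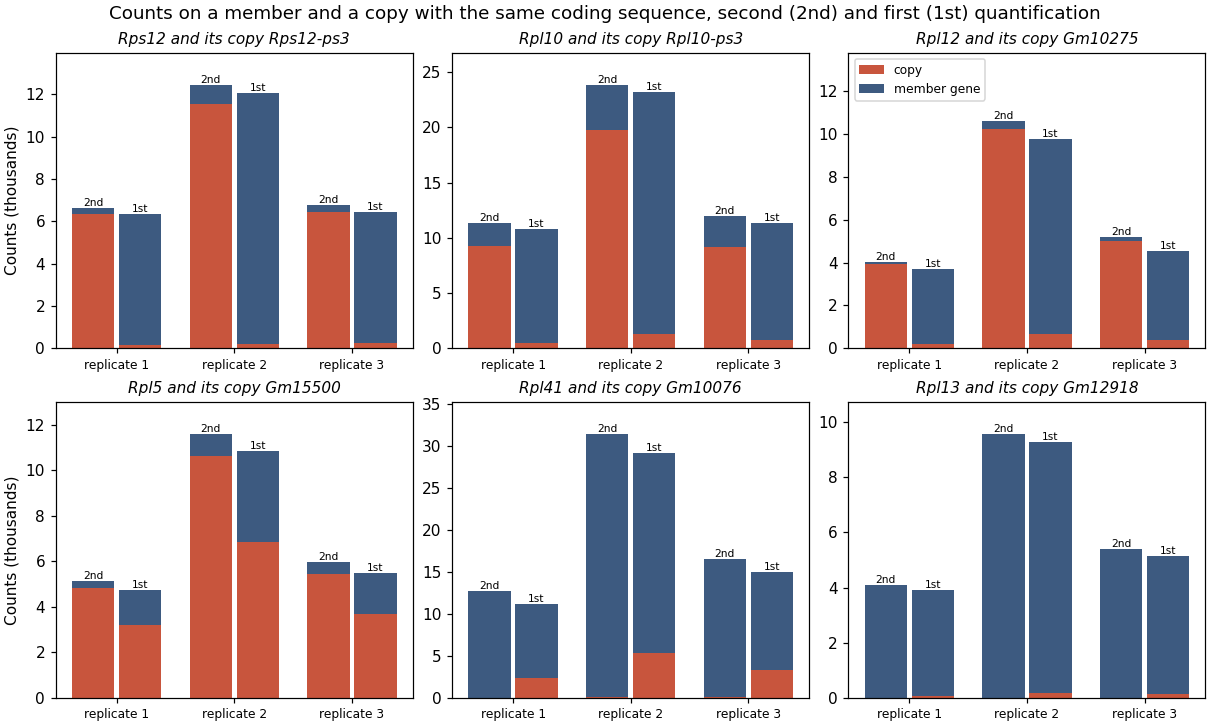
Counts on 6 members (blue) and on 1 copy of each with the same coding sequence (red), stacked, for the second (left bar) and the first (right bar) quantification of each library. For Rps12, Rpl10, Rpl12 and Rpl5 the second quantification lies mostly on the copy, for Rpl41 and Rpl13 on the member, and the height of the paired bars is close.

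Over all families, copies that are no members held 9.88%, 9.77% and 9.13% of the family counts in the second and 4.58%, 4.78% and 5.37% in the first quantification. Rps12-ps3, Rpl10-ps3 and Gm10275 together made up 49.96%, 47.3% and 48.0% of the copies' counts in the second. Of the 298 pseudogenes with -ps in the symbol, 56 could be compared, and 24 of these were over 2-fold lower and 5 over 2-fold higher in the second quantification in all libraries.

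Summed with its copies, no member remained past 2-fold. On counts, the log2 ratio of the second to the first quantification was -4.83 to 0.48 for the 19 members with such a copy, and 0.03 to 0.17 once each was summed with its copies (means of 3 libraries). Rescaled TPM summed in the same way still differed for some members, with mean log2 ratios of 0.77 for Rpl12, 0.67 for Rpl28, 0.57 for Rpl27a and -0.42 for Rpl41. Pairs with a single coding difference varied, as 3 examples chosen after their values were seen show. Rpl35 (chromosome 2) had 2631, 8038 and 3246 counts in the second and 2664, 8012 and 3152 in the first, and Gm2000 (chromosome 1) had 1806, 3664 and 1872 in the second and 1542, 3214 and 1694 in the first, so both stayed close. The copy Rpl37rt of Rpl37 had 93.2, 483 and 179 counts in the second and 31.4, 37.5 and 40.55 in the first. The copy Rpl19-ps11 of Rpl19 had 5.79, 23.3 and 0 in the second and 144, 449 and 237 in the first. Rpl35 and Gm2000 differ by C117T, counted from 1 at the first coding base of Rpl35, and coding bases 97 to 156 are printed with that base in capitals.
Rpl35: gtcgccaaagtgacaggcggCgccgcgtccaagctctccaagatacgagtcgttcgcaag
Gm2000: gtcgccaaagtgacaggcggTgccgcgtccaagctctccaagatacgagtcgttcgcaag

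For Rps12 and Rpl5, both past 2-fold, the error stated within the first quantification was far smaller than the difference between the quantifications. The deposited posterior SD of the count of Rps12 was 0.270%, 0.262% and 0.385% of the count in replicates 1, 2 and 3, and that of Rpl5 was 2.60%, 1.80% and 2.60%. The deposited interval of Rps12 in replicate 1, whose level the files do not state, ran from 393 to 416 TPM.

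Rpl7 differed in another way. It had 368, 657 and 596 rescaled TPM in the second and 398, 443 and 366 in the first quantification, so that replicates 2 and 3 were higher in the second and replicate 1 was not. In counts it had 5996, 23351 and 12636 in the second and 5692, 12827 and 6604 in the first. Summed with its 8 copies, the log2 ratio of counts was still 0.07, 0.86 and 0.93. Its coefficient of variation was 29.7% in the second and 9.73% in the first quantification. For Rpl7 the unevenness between libraries therefore depended on the quantification.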

How the data were processed

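Per the file headers, the authors deposited expected counts and TPM per gene from alignments to transcripts (the first quantification), and estimated counts and TPM per transcript made from the reads with an index (the second), both on mm10 with GENCODE M21. Which quantification tools were used is not stated in the labels or headers. The deposited TPM is scaled over all rows of each table.

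Estimated counts and TPM of the second quantification were summed per gene, and rescaled TPM was computed over protein-coding and long noncoding genes. Expected counts were rounded and scaled by TMM (edgeR 4.0.16, R 4.3.3) or, as an alternative, by DESeq2 1.42.0 size factors. Genes with at least 10 counts in a library entered a chi-square test against the scaled library sizes (Python 3.11.15, scipy 1.17.1), with Benjamini-Hochberg adjustment and a threshold of 0.05; the code was tested on simulated data. The labels give 1 group, so no conditions were compared. Log2 values of TPM use a pseudocount of 1, which understates differences of low genes. Sequences came from RefSeq (GRCm38.p6) and GENCODE M21 transcripts. Text files describing the deposit were read and hold no measurement.

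The members, lists and tests were chosen with earlier results of these data known. Named genes are the 8 highest and 8 lowest members by TPM, the 5 with the largest and the 5 with the smallest coefficient of variation among those of at least 10 TPM, members past or near 2-fold between the quantifications, paralogues and the role lists. Results of some genes are not reported here.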

Additional observations from a re-analysis of the deposited data

How the results depend on the processing

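The members' share of TPM, 1.46% as deposited, was 4.95% rescaled, 0.656% in the second quantification over all rows and 4.50% in the second rescaled, and 1.34% to 1.55% with each replicate left out. The median level of 154 TPM was 525 rescaled, 66.8 in the second over all rows and 458 in the second rescaled, and 143 to 165 with each replicate left out. The log2 difference of 60S and 40S medians was -0.30 in the second quantification, -0.59 with list means, -1.26e-04 on TMM-scaled CPM and -0.24 without paralogues and Rps19bp1 (chosen after seeing the data), and -0.39 to -0.34 with each replicate left out. Members past 2-fold between quantifications numbered 14 on TPM as deposited and 0 once summed with their copies (also chosen after seeing the data), and 5 to 5 with each replicate left out. For the 14, no share over protein-coding genes is given, and the members' median log2 ratio on that scale was itself past the 2-fold limit. The median log2 ratio of the second to the first quantification was -1.10 on TPM as deposited and turned to 0.088 on counts, and was -0.12 to -0.07 with each replicate left out. That of Rpl7 turned to -0.62 on TPM as deposited and that of Rps15a to 0.089 on counts. The median coefficient of variation was 8.69% for members and 14.5% for protein-coding genes on rescaled TPM, and 16.6% and 14.9% in the second quantification. With each replicate left out it was 6.36% to 12.5% for members, below protein-coding genes without replicate 3 (12.1%) and above them without replicate 1 (9.70%) or replicate 2 (11.1%). Calls between libraries numbered 76, 74 and 61 of 84 members without replicate 1, 2 or 3, against 55.6%, 52.5% and 53.2% of all genes tested. The causes were not tested. No paired analysis was possible because the labels give 1 group. Each library is a sample of reads, so genes with few counts such as Rpl39l and Rps27rt are limited by depth.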
